A study of Mus musculus with 2 samples.

Results

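The 8 genes Fas, Fadd, Casp8, Casp6, Ripk1, Ripk3, Mlkl and Xaf1 encode a death receptor, its adaptor, an initiator and an executioner caspase, the kinases and the effector of necroptosis, and an antagonist of an inhibitor of apoptosis. They were chosen by symbol, through the RefSeq identifier that the array gives each non-control probe, and all 8 were present, with 11 probes, among 22909 named genes. Each had at least 1 probe well above background on both arrays, the flag that the scanner software sets when a spot is clearly brighter than its local background. Of the named genes, 14679 had such a probe on at least 1 array.

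RNA of whole colon was hybridized to 1-colour (Cy3) Agilent mouse arrays, 1 per genotype, and the comparison asks how gene expression in the colon differs when EP4, a receptor of prostaglandin E2, is deleted in the epithelium. Control mice carried Villin-Cre alone, a transgene that expresses Cre recombinase in intestinal epithelium. The EP4 cKO mice carried Villin-Cre and EP4flox/flox, so the floxed Ptger4 gene can recombine in epithelial cells and not in the other cells of the colon wall. Both groups were C57BL/6 mice, 8 weeks of age by the methods, with no treatment named for these arrays. The RNA on each array was combined from 3 pools. With 1 array per genotype no test between the genotypes was possible, and every ratio given here compares those 2 arrays. The errors given are those that the scanner software estimates for a spot, and they do not include the spread between mice.

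A ligand-bound death receptor such as Fas recruits the adaptor FADD, which gathers procaspase-8, and active caspase-8 starts the executioner caspases that dismantle the cell in apoptosis. Where caspase-8 is not active, RIPK1 and RIPK3 can assemble through their shared interaction motif, and RIPK3 then phosphorylates MLKL, which breaches the plasma membrane in necroptosis. In the gut epithelium, FADD and caspase-8 are known to hold this second route in check. The arrays measure transcripts, so neither caspase cleavage nor MLKL phosphorylation is recorded in these values.

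The stretches around the start sites of these genes are shown because the motifs bound by interferon-activated factors were searched in them. Each window holds 250 bases before and 50 bases from the start of the gene, 5′ to 3′ on the gene's strand, from RefSeq on GRCm38.p6, and all 8 genes matched a window. The capitals mark matches on either strand to the ISRE letters GAAANNGAAA, bound by ISGF3, to the GAS letters TTCNNNGAA, or to the shorter IRF core AANNGAAA, which also lies within every ISRE match. Xaf1 lies at chr11:72301379-72301678 (plus strand), Mlkl at chr8:111338156-111338455 (minus strand) and Ripk3 at chr14:55788808-55789107 (minus strand). These are the 3 genes past 2-fold in EP4 cKO, a size that 4.88% of all genes with a value reached upwards, and the second of the Ripk1 windows, chr13:34002624-34002923 (plus strand), is added because it held every motif.
Xaf1: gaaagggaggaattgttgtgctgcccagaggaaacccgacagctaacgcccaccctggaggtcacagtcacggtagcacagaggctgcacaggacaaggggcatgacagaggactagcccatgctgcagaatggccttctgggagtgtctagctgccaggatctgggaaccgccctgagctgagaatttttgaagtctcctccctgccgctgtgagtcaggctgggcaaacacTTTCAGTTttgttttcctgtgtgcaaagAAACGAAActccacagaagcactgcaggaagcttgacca
Mlkl: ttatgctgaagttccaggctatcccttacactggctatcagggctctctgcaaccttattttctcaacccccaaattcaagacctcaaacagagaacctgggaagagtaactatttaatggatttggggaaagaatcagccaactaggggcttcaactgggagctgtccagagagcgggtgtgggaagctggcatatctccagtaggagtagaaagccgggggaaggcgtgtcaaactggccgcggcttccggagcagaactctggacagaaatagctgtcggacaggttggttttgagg
Ripk3: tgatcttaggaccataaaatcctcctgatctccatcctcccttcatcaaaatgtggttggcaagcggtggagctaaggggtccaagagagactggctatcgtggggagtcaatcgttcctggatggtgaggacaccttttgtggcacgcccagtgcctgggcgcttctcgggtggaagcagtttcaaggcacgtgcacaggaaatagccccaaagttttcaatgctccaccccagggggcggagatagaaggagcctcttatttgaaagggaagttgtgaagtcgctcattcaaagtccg
Ripk1: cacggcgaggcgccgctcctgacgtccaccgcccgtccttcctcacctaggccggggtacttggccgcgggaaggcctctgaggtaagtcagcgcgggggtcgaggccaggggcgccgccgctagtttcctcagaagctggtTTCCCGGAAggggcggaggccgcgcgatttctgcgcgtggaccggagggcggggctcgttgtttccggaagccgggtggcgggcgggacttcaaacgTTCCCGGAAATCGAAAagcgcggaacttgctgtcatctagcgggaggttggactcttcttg

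Xaf1, Mlkl and Ripk3 did not share a motif in these windows. Xaf1 held 2 IRF cores, TTTCAGTT at bases -17 to -10 from the start site and AAACGAAA at bases 11 to 18, and the Mlkl and Ripk3 windows held none of the 3 motifs. The second Ripk1 window held the ISRE match GAAATCGAAA at bases -5 to 4, which overlaps the nearer of its 2 GAS matches, TTCCCGGAA. The first Ripk1 window held none. Fas had 1 GAS match, TTCTGGGAA, and 2 IRF cores, and Casp8 had 2 IRF cores, whereas Fadd and Casp6 had no match. Over all 32851 windows of this length, 3.44% held the ISRE letters, 8.30% the GAS letters and 23.9% the IRF core, so the short core is common by its letters alone. A match shows the letters and not a bound factor, and a window without one says nothing about the factor.

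Ptger4, the targeted gene, was examined first as a check of the labels. Its brighter probe read 6227 for Villin-Cre and 5661 for the array labelled EP4 cKO, in signal scaled so that the trimmed mean of each array is 2500, and its dimmer probe read 393 and 592. Neither probe fell past 2-fold with the deletion (log2 ratios of -0.14 and 0.59), and whether either lies in the floxed stretch is not given in the sources used here. The directions below therefore rest on the array labels. The epithelial markers were high on both arrays, with 8 of 8 measured and a median log2 ratio of 0.37, and 4 of 6 smooth muscle markers were also measured on both. Myh11, the defining myosin of smooth muscle, stayed near background on both arrays although the tissue is described as whole colon.

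Of the 8 genes, 3 exceeded 2-fold upwards in EP4 cKO, as did 4.88% of all genes with a value, and 0 were more than 2-fold lower, beside 7.98% of all genes. The higher genes were Ripk3, Mlkl and Xaf1, the kinase and the effector of necroptosis and the IAP antagonist. The other 5 lay within 2-fold. The median log2 ratio of the 8 genes was 0.64 (range -0.18 to 3.47), beside -0.10 over all 14679 genes. These genes were listed with results of the arrays known, so the counts describe them and test nothing.

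**Figure D1:**
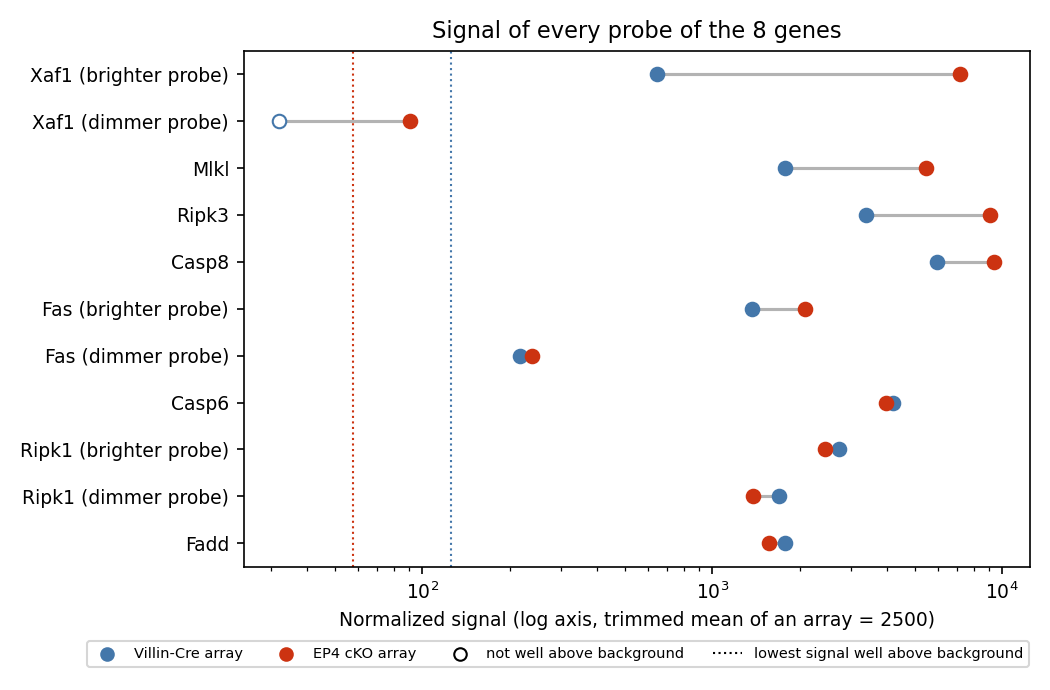
Normalized signal (log axis) of each of the 11 probes of the 8 genes in Villin-Cre (blue) and EP4 cKO (red), joined by a line, with an open circle where the probe was not well above background and dotted lines at the lowest signal well above background on each array (125 and 57.8). The brighter Xaf1 probe moved from 644 to 7128, while the Fadd, Casp6 and Ripk1 points of both arrays lie close together.

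The receptor and its adaptor both lay within 2-fold. Fas, the receptor of Fas ligand, had a brighter probe (NM_007987) that read 1365 in Villin-Cre and 2095 in EP4 cKO, a ratio of 1.53-fold (log2 0.62, scanner error 0.21). Its dimmer probe (NM_001146708) read 217 and 239, a log2 ratio of 0.14 with a scanner error of 0.30. Both probes were well above background on both arrays and both were higher in EP4 cKO, but only the brighter one by more than its scanner error. Fadd (NM_010175), the adaptor that binds the receptor's death domain, read 1779 and 1570 (log2 -0.18, scanner error 0.21). The Fadd signals of both arrays thus differed by less than the scanner error.

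Casp8 (NM_009812), the initiator caspase that FADD recruits, read 5958 in Villin-Cre and 9366 in EP4 cKO, a ratio of 1.57-fold (log2 0.65, scanner error 0.20). This ratio exceeded the scanner error without reaching 2-fold, and the difference from the log2 ratio of Fadd was 0.83, with a 95% interval of 0.27 to 1.40 from the scanner errors. Casp8 ranked 1270 and Fas 1344 from the top of the 14679 genes, with 91.3% and 90.8% of genes below them. Casp6 (NM_009811), an executioner caspase that cleaves lamins, read 4213 and 3967 (log2 -0.09). That change is under its scanner error of 0.20, and 51.1% of all genes had a lower ratio.

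The kinases of necroptosis differed from each other. Ripk1 (NM_009068), the kinase that joins receptor signalling to either outcome, had a pair of probes, of which the brighter read 2741 in Villin-Cre and 2446 in EP4 cKO (log2 -0.16), and the dimmer read 1696 and 1384 (log2 -0.29). Both Ripk1 probes read slightly lower in EP4 cKO, the dimmer by more than its scanner error of 0.21. Genes of similar mean signal also had a median log2 ratio of -0.16, so the brighter Ripk1 probe was not lower relative to them. Ripk3 (NM_019955), the kinase that phosphorylates MLKL, read 3379 and 9078, a ratio of 2.69-fold (log2 1.43, scanner error 0.20). Ripk3 was therefore higher by 1.59 on the log2 scale relative to Ripk1 (95% interval 1.02 to 2.16 from the scanner errors), a difference that no common factor between the arrays can alter.

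Mlkl (NM_029005), the pseudokinase that permeabilizes the membrane, read 1785 in Villin-Cre and 5466 in EP4 cKO, a ratio of 3.06-fold (log2 1.61, scanner error 0.21). Kinase and effector were thus higher together, with a difference of 0.19 between their log2 ratios and an interval of -0.38 to 0.76 that includes 0. Both had larger ratios than Casp8, Ripk3 by 0.77 and Mlkl by 0.96 on the log2 scale, with intervals of 0.21 to 1.34 and 0.39 to 1.53. Of all genes, 97.2% had a lower ratio than Ripk3 and 97.9% a lower one than Mlkl.

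Xaf1 (NM_001037713), which binds XIAP and is a known interferon-induced gene, had the largest ratio of the 8 genes. Its brighter probe read 644 in Villin-Cre and 7128 in EP4 cKO, a ratio of 11.1-fold (log2 3.47, scanner error 0.22), and it ranked 79 of 14679. The dimmer probe read 32.1, not well above background, and 90.5, well above background. Since the lowest signal well above background on the Villin-Cre array was 125, the dimmer probe gives no fold for Xaf1, although its own signal also ran upwards. The 11.1-fold value therefore rests on 1 of the 2 probes.

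**Figure D2:**
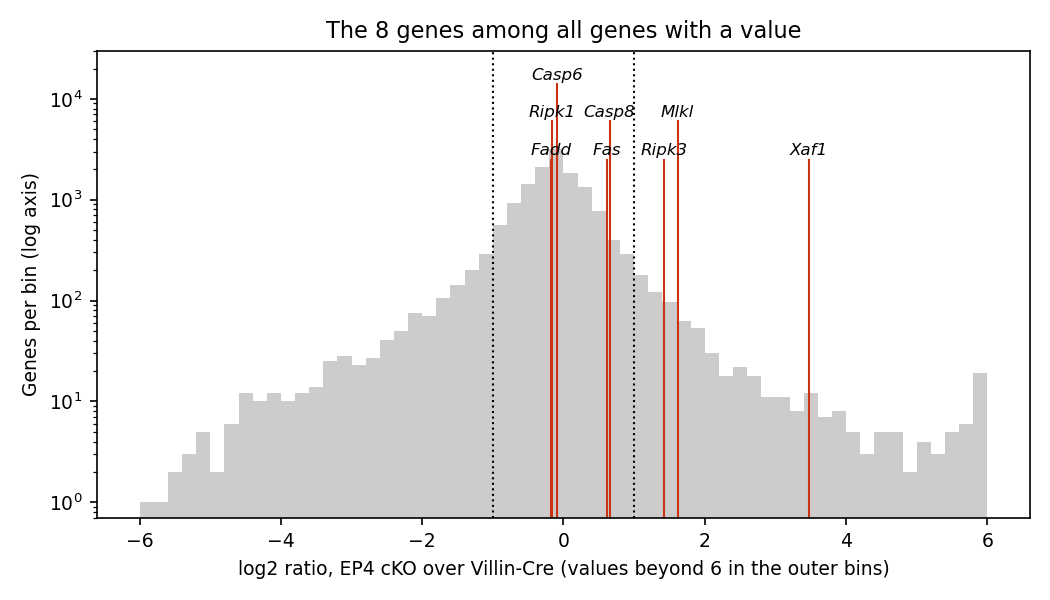
Number of genes (log axis) at each log2 ratio of EP4 cKO over Villin-Cre for the 14679 genes with a value, with the 8 genes drawn as red lines (their heights only keep the names apart) and dotted lines at 2-fold. Fadd, Ripk1 and Casp6 lie in the body of the distribution, Fas and Casp8 on its right flank at 0.62 and 0.65, and Ripk3, Mlkl and Xaf1 beyond 2-fold.

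The 8 genes were set beside 60 other genes of the same pathways, of which 58 had a value. Among these 58, 4 (6.90%) exceeded 2-fold upwards and 2 (3.45%) downwards, beside 4.88% and 7.98% of all genes, with a median log2 ratio of 0.03. The upward share of these partners was thus near that of all genes. With the 8 genes included, 7 of 66 were past 2-fold upwards and 2 downwards, and no list below had more than 3 of them.

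Among the death receptors and their ligands, 2 of 9 genes with a value were higher and 0 were lower, with a median log2 ratio of 0.23. Tnfsf10, the ligand TRAIL, read 388 in Villin-Cre and 2458 in EP4 cKO (log2 2.66, 6.34-fold). Tnfrsf23, a TRAIL decoy receptor in mouse, read 196 and 568 (log2 1.54) by 1 of its 3 probes, the other 2 being dim on both arrays. The ligand of Fas was not measurable, since Fasl read 31.8 and 43.3, near background on both arrays, as did the decoy receptor gene Tnfrsf22. Tnf, the ligand that engages RIPK1 through TNF receptor 1, read 472 and 477 by its brighter probe (log2 0.01), the value of the list nearest to 0. The dimmer Tnf probe read 57.7, not well above background, in Villin-Cre and 262 in EP4 cKO, a log2 ratio of at least 1.07, so the probes of Tnf disagree. Its receptor Tnfrsf1a read 14416 and 18313 (log2 0.35), with 0.16 for the second probe.

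In the death-inducing complex, 0 of 10 genes passed 2-fold upwards and 1 downwards, with a median log2 ratio of 0.17. The lower one was Traf1, a signalling adaptor of the TNF receptor family, which read 1806 and 368 (log2 -2.30, 4.91-fold lower). Cflar, which encodes c-FLIP, the catalytically inactive partner that restrains caspase-8, read 4115 and 4192 (log2 0.03) by its brightest probe. Casp8 was thus higher by 0.63 relative to this Cflar probe (95% interval 0.06 to 1.19 from the scanner errors). The other Cflar probes gave log2 ratios of 0.56, -0.13 and at least 0.13, so the size of that difference depends on the probe.

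The ubiquitin and kinase checkpoints on RIPK1 held 1 gene higher and 1 lower by more than 2-fold among 18, with a median log2 ratio of 0.02. Tbk1, a kinase that phosphorylates and restrains RIPK1, read 771 and 1788 (log2 1.21). Ikbkg, which encodes NEMO, read 974 and 381 (log2 -1.36), but its other 2 measured probes gave 0.02 and -0.18 and stand apart from it. Tnfaip3, the ubiquitin-editing enzyme A20, read 6096 and 10757 (log2 0.82), and Spata2 was nearest to 0 (log2 0.01).

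No gene of the initiator and executioner caspases and the apoptosome passed 2-fold (0 of 7), although the median log2 ratio of 0.38 was the highest of the 7 pathway lists. Casp6 was the value of the list nearest to 0. Casp9, the initiator of the mitochondrial route, read 5873 and 5322 (log2 -0.14). Among the caspase substrates and nucleases, 0 of 6 passed 2-fold, with a median of -0.06 and Dffa nearest to 0 (log2 -0.02).

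Xaf1 was the only gene past 2-fold among the 6 IAP proteins and antagonists measured. Xiap, the caspase inhibitor that XAF1 binds, read 8027 and 9861 by its brighter probe (log2 0.30), and -0.35 was the log2 ratio of its dimmer probe. Xaf1 was higher by 3.17 on the log2 scale relative to the brighter Xiap probe (95% interval 2.59 to 3.76 from the scanner errors). Birc2, a ubiquitin ligase of RIPK1, lay nearest to 0 in this list (log2 -0.19).

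In the necroptosis list, 3 of 12 genes passed 2-fold upwards and 0 downwards, beside 4.88% and 7.98% of all genes. The median log2 ratio of the list was 0.23. Of the 3, Ripk3 and Mlkl belong to the 8 genes, which were listed with results known, so this count tests nothing. Ripk3 and Mlkl were joined by Zbp1, a nucleic acid sensor that engages RIPK3 through the same interaction motif as RIPK1. Zbp1 read 2686 in Villin-Cre and 41402 in EP4 cKO (log2 3.95, 15.4-fold), and its second probe read 575 and 8730 (log2 3.92). The Zbp1 probes gave nearly the same ratio, and relative to Ripk1 the ratio was higher by 4.11 on the log2 scale (95% interval 3.54 to 4.68 from the scanner errors). Ppm1b, a phosphatase of RIPK3, was nearest to 0 (log2 0.09), and Aurka had the lowest value (log2 -0.98).

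**Figure D3:**
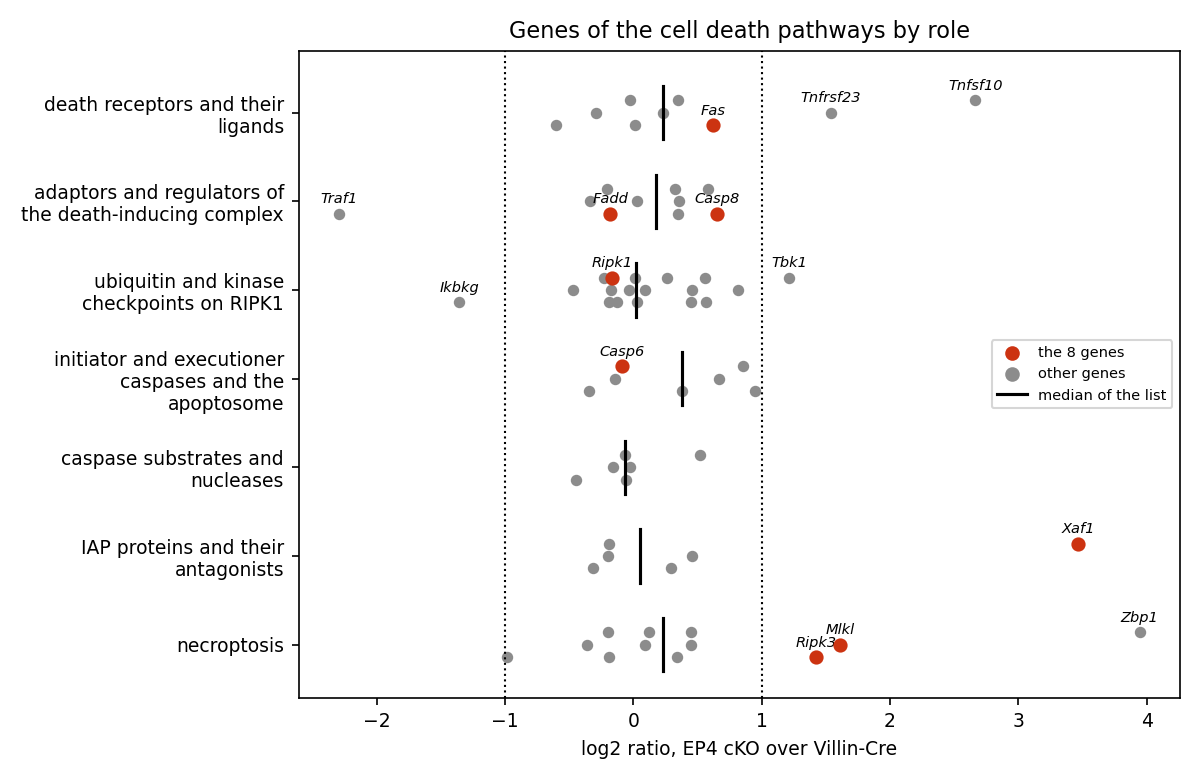
Log2 ratio of EP4 cKO over Villin-Cre for each gene with a value in the 7 pathway lists, 1 point per gene (Birc2 and Birc3 stand in a pair of lists), with the 8 genes in red, the others in grey, a black bar at the median of each list and dotted lines at 2-fold. The medians lie between -0.06 and 0.38, and the named points beyond 2-fold number at most 3 in a list.

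Several values bear on where the transcripts came from, and in RNA of a whole tissue fewer cells of a type and less RNA per cell cannot be told apart. The 10 interferon reference genes, among them Isg15, were all more than 2-fold higher (median log2 ratio 4.32, range 1.36 to 6.07). Ripk3 (1.43) and Mlkl (1.61) lay near the low end of that range and Xaf1 (3.47) below its median. The other 5 genes lay under the range. Of all genes, 97.0% had a lower ratio than Irf1, the lowest of the reference genes. Whether interferon had a part in the ratios of the 8 genes was not tested. The leukocyte markers Ptprc, Coro1a and Laptm5 gave log2 ratios of 0.97, 1.53 and -0.58, and their summed signal was 1517 in Villin-Cre and 3390 in EP4 cKO. Of the T and NK cell markers, 3 of 10 passed 2-fold upwards (Cd3g at log2 1.28, Nkg7 at 1.42 and Gzmb at least 4.56-fold). The perforin gene Prf1 was the 1 past 2-fold downwards (log2 -2.16). The 6 within 2-fold were Cd2 (log2 0.91), Cd4 (0.18), Lck (-0.03), Cd3e (-0.10), Cd3d (-0.79) and Cd8a, which gave no fold. Cd3e and Cd3d were brighter than Cd3g on both arrays. The median of the list was 0.09, with a summed signal of 14936 and 15904. Among 8 macrophage markers, 1 was higher (Mrc1, at least 4.31-fold) and 0 lower (median of the 6 with a value 0.48). Their summed signal of 63317 and 88095 was mostly that of Itgam (49347 and 68598). Cd14, Cd68 and Csf1r had log2 ratios of 0.88, -0.09 and -0.79, and Aif1 one of at least 0.48, with the defining markers Adgre1 and Lyz2 near background on both arrays.

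Of the 4 neutrophil markers with a value, 2 passed 2-fold upwards, S100a8 (at least 2.83-fold) and S100a9 (2.39-fold), and 0 downwards. The brightest of them, Csf3r, had a log2 ratio of -0.38, and the summed signal of the list was 106855 and 82775. Among the other lists, 1 of 6 goblet markers was past 2-fold upwards (Clca1, log2 1.31) and 0 downwards, with Tff3 at -0.75, Muc2 at -0.06 and a median of 0.22, and 0 of the 3 B and plasma cell markers and of the 1 endothelial marker with a value were past it. Of the 5 smooth muscle markers with a value, 1 was past 2-fold downwards (Cnn1, log2 -2.73), while Acta2, Actg2 and Tagln had log2 ratios of 0.62, 0.72 and 0.38 (median of the list 0.38). Only 1 of 4 enteric neuron and glia markers had a value, Uchl1 (log2 -1.43).

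Markers of fibroblasts moved more. All 5 fibroblast markers with a value, Col1a1, Col1a2, Col3a1, Dcn and Lum, were more than 2-fold lower (median log2 ratio -4.81, with 3 of the 5 ratios given as bounds), and their summed signal was 13068 in Villin-Cre and 290 in EP4 cKO. In the epithelium list the summed signal was 1.88e+06 and 2.51e+06, and Krt20 was the 1 marker of 8 past 2-fold (log2 1.80). The part of RNA from any of these cell types in the ratios of the 8 genes was not tested. Setting the ratios relative to the median log2 ratio of the epithelial markers takes 0.37 off each of them. Ripk3, Mlkl and Xaf1 were then past 2-fold (the lowest, Ripk3, at a log2 ratio of 1.06), whereas Fas and Casp8 stood at 0.25 and 0.29. Taking off 1 constant cannot show what part cell composition had in these ratios.

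**Figure D4:**
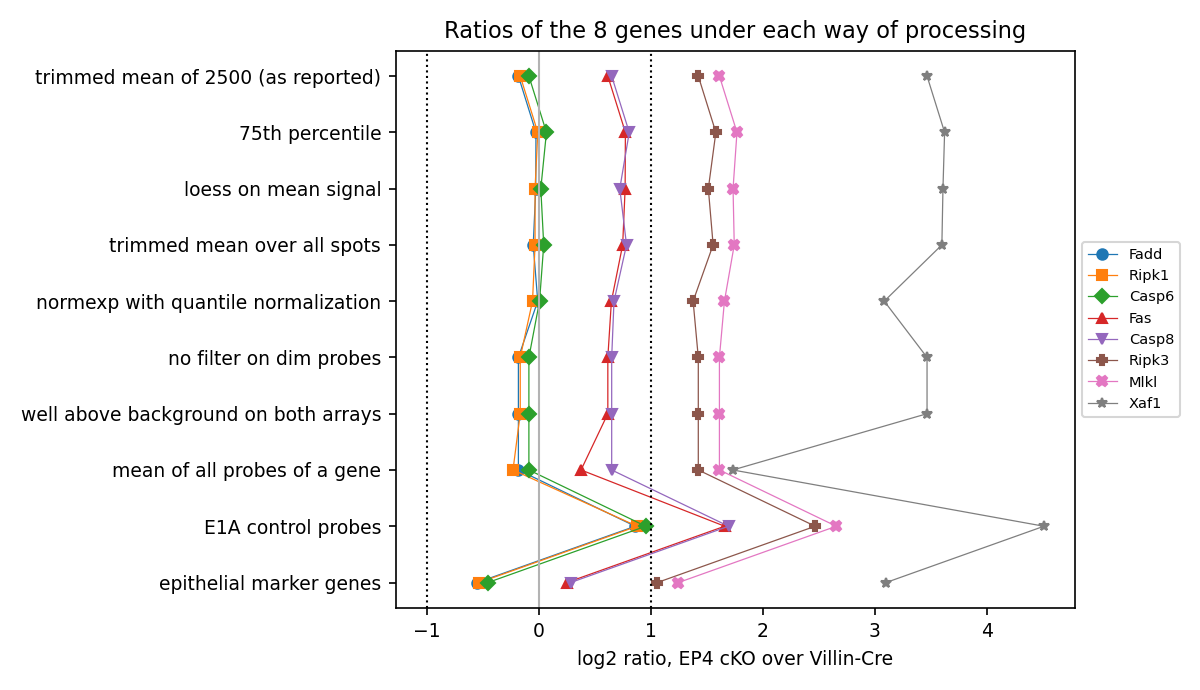
Log2 ratio of EP4 cKO over Villin-Cre of the 8 genes under each of 10 ways of scaling, background correction or choice of probes, 1 symbol per gene, with dotted lines at 2-fold and a grey line at 0. Ripk3, Mlkl and Xaf1 lie beyond 2-fold throughout, Fas and Casp8 do so only after scaling to the E1A control probes, and Casp6 lies on either side of 0.

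At a threshold of 1.5-fold, 5 of the 8 genes were past it upwards, beside 9.86% of all genes, and 0 downwards, beside 18.7%. At 3-fold 2 were past it upwards, beside 2.21%, and 0 downwards, beside 3.73%.

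How the arrays were scaled moved the 8 genes together. The log2 ratios of Ripk3 ran from 1.06 to 2.47 over the 10 ways of processing, those of Mlkl from 1.25 to 2.66, and those of Xaf1 from 1.73, where the mean of its probes was taken with the dim one at 0, to 4.51. Casp6 had the other sign in 5 of the 10 ways. Fadd and Ripk1 had it in 1 each, after scaling to the 8 E1A control probes of the array, which by construction subtracts their median log2 ratio of -1.04 from that of every probe measured on both arrays. Probes that measure the same gene differed in their log2 ratio by a median of 0.19 over 4103 genes, with 0.72 at the 90th percentile. The log2 ratios of Fas and Casp8 are under that percentile as reported and above it in 4 of the 10 ways of processing, and those of Ripk3, Mlkl and Xaf1 are above it in all 10.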

How the data were processed

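Whole colon RNA of Villin-Cre and EP4 cKO mice was measured on 1 Agilent array (SurePrint G3 Mouse GE v2, 62976 spots) per genotype, and groups were taken from the genotype labels. The authors deposited scanner output, in which the processed signal of a spot is a background-subtracted intensity that is not scaled between arrays. The file headers name Feature Extraction 12.0.3.1 and the submitters' processing notes 11.5.1.1. The flags for outliers, saturation and signal well above background (unit other) were used as deposited.

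Outlier spots (147 for Villin-Cre, 126 for EP4 cKO) were dropped and spots of a probe averaged. Each array was scaled to a mean of 2500 without 2% of probes at each end (724 and 931 before scaling), as in the study's methods. Of 56593 probes, 32989 (58.3%) were named through RefSeq identifiers, 45.4% and 51.6% were well above background, and 0 of the spots used were saturated. A gene was its brightest probe among those well above background on at least 1 array. Where 1 array was dim, its value was raised to the lowest signal well above background (125 and 57.8) if below it, so such a ratio is a bound. Intervals combine the scanner's error estimates. Over 289 probes with repeated spots the median SD of the log2 ratio was 0.035. Precision is limited by the number of arrays, and nothing here measures the spread between mice.

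The 8 genes, the pathway lists and the marker lists were chosen with earlier results of these data known. Named are the 8 genes with every probe, in each pathway list the genes past 2-fold and the gene nearest to 0, partners by role whatever their value, and Ptger4. Some partners are not reported here. Aurka, the non-member markers and the reference genes given by name were picked to describe their lists after their values were seen. Alternatives were another scaling (75th percentile, loess with a span of 0.3, all spots), normexp (limma 3.58.1, R 4.3.3, offset 50, on the median signal), other filters, the mean of all probes and thresholds of 1.5-fold and 3-fold. Scaling to E1A control probes or to epithelial markers was added after seeing the data. Ratios were computed in Python 3.11.15 with pandas 2.3.3 and tested on simulated data.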

Additional observations from a re-analysis of the deposited data

How the results depend on the processing

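Ripk3, Mlkl and Xaf1 were more than 2-fold higher in each of the 10 ways of processing run here. The number of the 8 genes past 2-fold was 3 in each of them except scaling to the E1A control probes, which gave 5, and it was 5 at the 1.5-fold threshold and 2 at the 3-fold threshold. Their median log2 ratio, 0.64, became 1.68 with the E1A control probes and 0.27 with the epithelial markers, and lay between 0.52 and 0.79 otherwise. The 9 pathway genes past 2-fold became 41 with the E1A control probes, 17 at 1.5-fold and 5 at 3-fold, and stayed between 8 and 11 otherwise. By construction the E1A and epithelial scalings move the ratio of each probe measured on both arrays by 1 constant. The median of all genes, -0.10, became 0.88 and -0.47 with them, and 0 with the 75th percentile, loess, all spots or normexp, where 238 to 858 genes without a fold were held at 0. Over the 12808 genes measured on both arrays the median was -0.15 as reported, and 0.0066, -0.02, -0.02 and -0.03 with those 4 settings. Of all genes, 717 were higher and 1171 lower as reported, 605 and 394 with normexp, 1172 and 7253 with no filter on dim probes, 5827 and 338 with the E1A control probes, and 436 and 2472 with the epithelial markers. The calls that were higher were 38.0% as reported, 50.6% with the 75th percentile, 50.9% with loess and 48.6% with all spots. Tbk1 kept its call in 9 of 10 ways and Ikbkg in 7. No paired analysis was possible because each genotype has 1 array.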

Other observations

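Over all genes that were more than 2-fold higher and had a promoter window, 65 of 552 (11.8%) held the ISRE letters, 54 (9.78%) the GAS letters and 177 (32.1%) the IRF core, beside 3.71%, 8.55% and 22.1% of the 11695 genes with a value and a window. No test of these shares was run. The windows of the 8 genes also differed in CpG content, from 5 CpG in Casp8 and 6 in Xaf1 through 7 in Mlkl and 10 in Ripk3 to 14 in Fas, 16 in Casp6 and 22 in Fadd, with 22 and 36 in the Ripk1 windows and a median of 7 over all windows.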
